A study of Mus musculus with 6 samples.

Results

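The mouse Cyp2d family is a set of liver cytochrome P450 genes that lie side by side on chromosome 15. Its members were taken by symbol, as Cyp2d9, Cyp2d10, Cyp2d11, Cyp2d12, Cyp2d13, Cyp2d22, Cyp2d26, Cyp2d34 and Cyp2d40, and all 9 were listed in at least 1 library, among 18253 gene symbols in all. RNA was sequenced from the livers of C57BL/6 mice, labelled with an age of postnatal day 21 and 5 days of treatment. All 6 libraries came from mice given ANIT (alpha-naphthylisothiocyanate), which is toxic to the bile duct lining and stops bile flow. In 3 of them ANIT was given alone and in 3 together with celastrol, a triterpenoid from the thunder god vine, and these groups are called ANIT and celastrol below. The labels describe no untreated liver, no dose and no sex. Nothing in them ties a library to its own animal, so the p-values reflect only how these samples vary, which may be technical. Depth was close to even, at an estimated 18940000 to 19840000 reads per library.

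Cytochrome P450 enzymes hold a heme group and use electrons passed on by the reductase Por to add oxygen to fatty acids, steroids and drugs. The human counterpart of the family, CYP2D6, clears many medicines, whereas the mouse carries a row of closely related copies. Mouse Cyp2d9 hydroxylates testosterone and is the classical example of a P450 that is higher in male than in female adult liver. In mice that carry human CYP2D6, the hepatocyte factor HNF4A drives that gene and the bile acid-induced repressor SHP, the product of Nr0b2, lowers it.

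The copies are alike enough that the assignment of reads bears on every value below. The 30 coding bases of the loop that carries the heme-binding cysteine are shown for the 8 protein-coding members, 5′ to 3′, with capitals at bases that differ from Cyp2d9. They were read from GENCODE release M21 transcripts on GRCm38, the build also called mm10.
Cyp2d9: ttctcagcaggccgcagatcatgcctgggg
Cyp2d22: ttctcagcaggccgcagatcatgcctgggg
Cyp2d26: ttctcagcaggccgcagatcatgcctgggg
Cyp2d10: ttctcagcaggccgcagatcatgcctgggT
Cyp2d34: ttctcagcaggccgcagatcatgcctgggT
Cyp2d12: ttTtcagcaggccgcagatcatgcctgggg
Cyp2d11: ttctcagcaggAcAcagatcatgcctgggg
Cyp2d40: ttctcagcaggccgTCgaGcatgTctgggT

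Cyp2d9, Cyp2d22 and Cyp2d26 were identical over this stretch, and Cyp2d40 differed most, at 5 bases. Over the whole aligned coding sequence Cyp2d9 was 93.3% identical to Cyp2d11, 92.5% to Cyp2d10 and 92.1% to Cyp2d12, but 81.9% to Cyp2d26, 78.6% to Cyp2d22 and 77.1% to Cyp2d40. Of all 50-base windows of the Cyp2d10 transcript, 40.5% also occurred in the transcript of another gene, the highest share in the family. The share was 29.0% for Cyp2d9, 24.1% for Cyp2d40, 10.5% for Cyp2d26 and 6.14% for Cyp2d22. With 100-base windows it was 14.8% for Cyp2d10 and 9.86% for Cyp2d9, and at or below 0.375% for Cyp2d22, Cyp2d26, Cyp2d34 and Cyp2d40. Neither the read length nor the treatment of reads matching several copies is given in the sources used here. Cyp2d13, which RefSeq lists as a transcribed pseudogene, has no transcript in that annotation and could not be compared in this way. Windows that another member shares only with Cyp2d13 are therefore not counted, and the shares above may be too low.

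Promoters of 5 members were in the RefSeq table (GRCm38.p6), and 119 bases of each are shown because the copies differ in level by orders of magnitude. Each stretch ends with tttataagg, a TATA-like run, whose distance from the annotated start site differs. It lies at -28 to -20 in Cyp2d9, -31 to -23 in Cyp2d10 and Cyp2d26, and -43 to -35 in Cyp2d11. In Cyp2d40 it lies much farther away, at -91 to -83. Capitals mark CAAAGGGCA and TTCCGG, the latter being CCGGAA on the other strand, the core read by ETS factors such as GABP, which is known to bind the Cyp2d9 promoter.
Cyp2d9 (chr15:82452239-82452357, plus strand): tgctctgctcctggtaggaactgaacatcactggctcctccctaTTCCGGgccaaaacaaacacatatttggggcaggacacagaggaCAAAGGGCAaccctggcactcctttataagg
Cyp2d10 (chr15:82407217-82407335, minus strand): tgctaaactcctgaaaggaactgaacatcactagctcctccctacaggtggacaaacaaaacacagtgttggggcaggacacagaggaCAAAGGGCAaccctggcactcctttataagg
Cyp2d11 (chr15:82394057-82394175, minus strand): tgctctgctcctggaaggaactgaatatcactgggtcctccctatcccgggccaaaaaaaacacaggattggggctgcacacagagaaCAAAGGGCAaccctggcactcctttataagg
Cyp2d40 (chr15:82764205-82764323, minus strand): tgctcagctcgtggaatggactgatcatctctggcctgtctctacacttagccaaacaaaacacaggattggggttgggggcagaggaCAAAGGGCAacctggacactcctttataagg
Cyp2d26 (chr15:82794268-82794386, minus strand): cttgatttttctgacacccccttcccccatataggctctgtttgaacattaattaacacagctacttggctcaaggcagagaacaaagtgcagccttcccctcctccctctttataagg

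Compared position by position without gaps, the Cyp2d9 stretch differed from that of Cyp2d11 at 11 bases, of Cyp2d10 at 17, of Cyp2d40 at 29 and of Cyp2d26 at 80. A count without gaps overstates differences where bases were inserted or lost. With gaps allowed over the 250 bases before the start site, Cyp2d9 was 93.6% identical to Cyp2d11, 85.0% to Cyp2d10, 80.2% to Cyp2d40 and 61.7% to Cyp2d26. CAAAGGGCA was found in Cyp2d9, Cyp2d10, Cyp2d11 and Cyp2d40 and not in Cyp2d26, whose stretch holds the similar caaagtgca. CAAAGGGCA occurred in 0.381% of 27025 RefSeq promoters, each read over the 250 bases before the start site on both strands. TTTATAAGG occurred in all 5 and in 0.237% of all promoters. CCGGAA was found in Cyp2d9 alone of the 5, at -94 to -89 from the start site, against 12.2% of all promoters. The HNF1-type run GTTAAT (6.52% of all promoters) was found in Cyp2d26 alone. Of the other motifs searched, TTCNNNGAA of STAT5 (7.18%), TGTTTAC of FOXA factors (3.09%) and the HNF4-type runs CAAAGTCCA (0.381%) and CAAAGGTCA (0.407%) had no match in the 5. The matched motifs did not overlap each other, and CAAAGGGCA and TTTATAAGG were chosen after these promoters had been read. A match describes letters and shows no binding.

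Levels are deposited FPKM, fragments per kilobase and per library size, which allows genes of different length to be compared. In ANIT libraries Cyp2d26 was the most abundant member at 693 ± 32.5 FPKM, followed by Cyp2d10 at 325 ± 18.0, Cyp2d9 at 151 ± 3.99, Cyp2d22 at 65.6 ± 8.11, Cyp2d13 at 34.4 ± 4.94 and Cyp2d40 at 24.8 ± 6.17 (mean ± SD, n = 3). No 2 neighbours among these 6 overlapped. Cyp2d26 ranked 97 and Cyp2d10 215 among all symbols with ANIT. The remaining 3 were at the floor of the measurement. Cyp2d12 had 0.22 to 0.54 FPKM and Cyp2d11 0.07 to 0.46 FPKM over the 6 libraries, or about 7 to 17 and 2 to 15 reads at the estimated depth. Cyp2d34 was listed in 2 libraries, at 0.04 FPKM in ANIT replicate 3 and 0.08 FPKM in celastrol replicate 2, and was not listed in the other 4. By the same estimate Cyp2d9 had 4752 to 10791 reads per library, so these 3 copies were barely detected beside their neighbours, and small changes in them were not detectable at this depth. In the fit without a filter on low values their adjusted p-values (limma, n = 3 per group) were 0.74 for Cyp2d12, 0.98 for Cyp2d11 and 0.78 for Cyp2d34. The 95% interval of the log2(FPKM + 1) difference ran from -0.18 to 0.31 for Cyp2d12 and from -0.27 to 0.26 for Cyp2d11. At these levels the added 1 outweighs the FPKM itself, so narrow intervals on this scale do not exclude large fold changes.

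**Figure D1:**
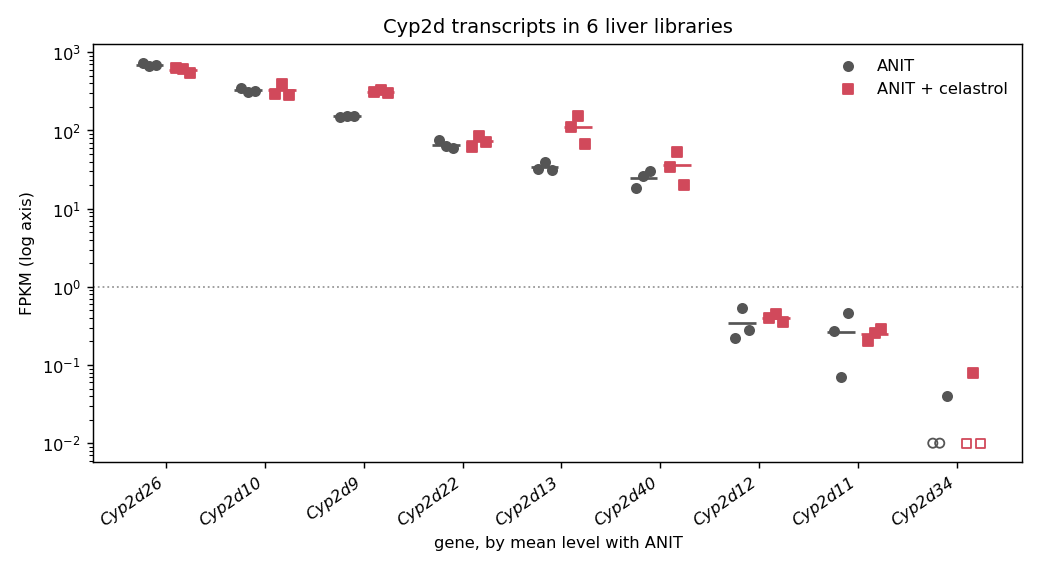
FPKM (log axis) of the 9 Cyp2d genes in each library, ordered by the ANIT mean, with circles for ANIT, squares for celastrol and bars for group means. Open symbols at 0.01 stand for a symbol not listed, the dotted line is the 1 FPKM used in the filter, and Cyp2d9 and Cyp2d13 are the members whose celastrol libraries all lie above their ANIT libraries.

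The comparison of the groups addresses how the family differed with celastrol in ANIT-treated liver. Cyp2d9 and Cyp2d13 were higher with celastrol, and no member was lower, among the 6 members that reached 1 FPKM in 3 or more libraries and could be tested. Over all 10593 genes tested in the same way (limma on log2(FPKM + 1), adjusted p under 0.05), 4.41% were higher and 20.6% were lower, and the median log2 fold change was -0.17. Unadjusted p-values under 0.05 gave the same counts for the family, 2 higher and 0 lower. All celastrol libraries lay above all ANIT libraries for both genes, as for 8.35% of all tested genes. Since these are whole livers, fewer cells of a type and less RNA per cell cannot be told apart.

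Cyp2d9 (chr15:82452377-82456827, plus strand) stood at 147, 154 and 152 FPKM in ANIT replicates 1, 2 and 3 and at 308, 325 and 298 FPKM in the celastrol replicates. The libraries of each group lay close together and the groups were far apart. The mean went from 151 ± 3.99 to 310.0 ± 13.9 FPKM, a ratio of 2.05. The log2 fold change was 1.03 (SE 0.12, 95% interval 0.75 to 1.31, limma adjusted p = 0.0018). Within celastrol the log2 SD of Cyp2d9 was 0.064, lower than for most tested genes (percentile 12.3).

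Cyp2d13 (chr15:82636750-82642045) had 32.4, 40.1 and 30.8 FPKM with ANIT, against 111, 151 and 66.9 with celastrol. Every celastrol library was above every ANIT library, but celastrol replicate 2 held 2.26 times the level of replicate 3. The mean went from 34.4 ± 4.94 to 109.8 ± 42.1 FPKM, a ratio of 3.19. The log2 fold change was 1.58 (SE 0.28, 95% interval 0.91 to 2.25, limma adjusted p = 0.0094). The log2 SD within celastrol was 0.59, at percentile 96.3 of the tested genes. RefSeq gives the locus no protein, so this value describes RNA assigned to a pseudogene among similar genes.

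The most abundant members did not pass the test. Cyp2d26 (chr15:82790107-82794452, minus strand) had 729.6, 667 and 684 FPKM with ANIT and 628, 613 and 549 with celastrol. All celastrol libraries were below all ANIT libraries, as they were for 36.6% of all tested genes. The log2 fold change was -0.22 (SE 0.14, 95% interval -0.54 to 0.10, limma adjusted p = 0.27). Cyp2d10 (chr15:82402845-82407253, minus strand) had 345, 309 and 320.4 FPKM with ANIT and 294, 398 and 284 with celastrol. Its groups overlapped, with celastrol replicate 2 the highest of the 6 libraries. The log2 fold change was -0.01 (95% interval -0.40 to 0.38, limma adjusted p = 0.96), and it was 0.17 after median-ratio scaling and 0.23 after quantile normalization.

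Cyp2d22, the mouse gene often set beside human CYP2D6, lies at chr15:82370527-82380260 on the minus strand. It had 74.7, 62.9 and 59.2 FPKM with ANIT and 61.2, 85.4 and 70.9 with celastrol. The groups overlapped, and the log2 fold change was 0.14 (95% interval -0.24 to 0.51, limma adjusted p = 0.56). Cyp2d40 (chr15:82759833-82764122, minus strand) has a shorter coding sequence than the others, 338 codons against 500 or 504. It had 18.2, 26.03 and 30.3 FPKM with ANIT and 34.2, 53.6 and 19.8 with celastrol. Its groups overlapped because celastrol replicate 3 fell among the ANIT libraries, and the log2 fold change was 0.43 (95% interval -0.44 to 1.31, limma adjusted p = 0.41). The width of this interval leaves both a decrease and a more than 2-fold increase within it.

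**Figure D2:**
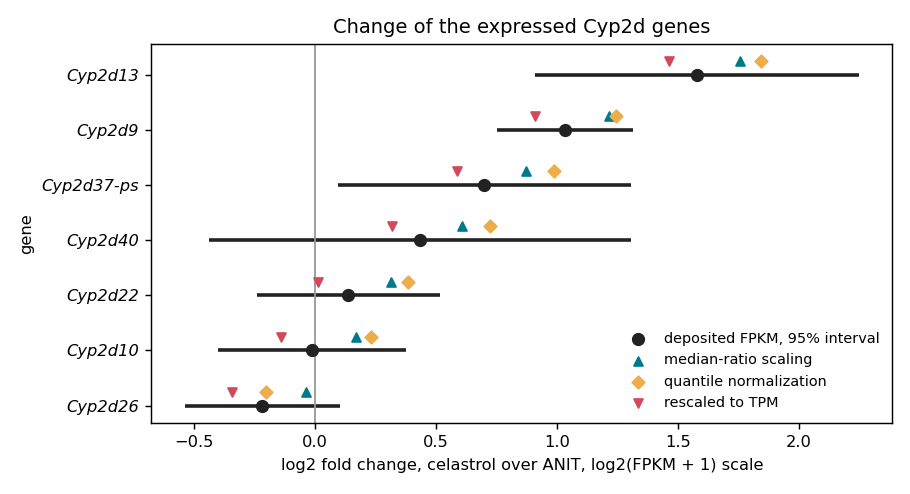
Log2 fold change (celastrol over ANIT, log2(FPKM + 1) scale) of the tested Cyp2d genes and of the pseudogene row Cyp2d37-ps, with black circles for deposited FPKM, bars for the 95% interval, and coloured symbols for other scalings. Cyp2d9 at 1.03 and Cyp2d13 at 1.58 stay well above 0 under each scaling, while Cyp2d10 changes sign.

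The files list 1 further Cyp2d symbol, the transcribed pseudogene Cyp2d37-ps, which is not among the 9 members. It had 19.3, 20.9 and 22.3 FPKM with ANIT and 37.4, 48.5 and 22.4 with celastrol. The difference was 0.70 on the log2 scale, with an SE of 0.26 (limma adjusted p = 0.086). It missed the threshold on the deposited values and passed in 4 of 15 alternatives, among them the one without celastrol replicate 3, with an adjusted p of 0.0081.

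The make-up of the family's RNA differed between the groups more than its total. The 9 members summed to 1347, 1260 and 1278 FPKM with ANIT and to 1437, 1627 and 1288 with celastrol, so the groups overlapped. The means were 1295 ± 45.8 and 1451 ± 170 FPKM, a ratio of 1.12. Without Cyp2d9 and Cyp2d13 the sum was 1109 ± 52.6 with ANIT and 1031 ± 114 with celastrol, a ratio of 0.929. These genes were left out because they were called higher, so a ratio below that of the full sum follows from the choice. Scaling moves this ratio as it moves that of the full sum, and it was not recomputed under other scalings. Cyp2d9 made up 10.9%, 12.2% and 11.9% of the family's FPKM with ANIT and 21.4%, 19.97% and 23.1% with celastrol. Cyp2d13 made up 2.41%, 3.18% and 2.41% with ANIT and 7.76%, 9.28% and 5.19% with celastrol. The share of Cyp2d26 was 53.5 ± 0.637% with ANIT and 41.3 ± 3.21% with celastrol, and that of Cyp2d10 was 25.1 ± 0.517% and 22.3 ± 2.03%. For each of these 4 genes the groups did not overlap, and the exact two-sided permutation test gave p = 0.1, the smallest that 3 against 3 libraries allow. Shares sum to a whole, so a higher share of one gene lowers the others. For Cyp2d22 and Cyp2d40 the groups overlapped (exact permutation p = 0.9 and p = 0.4).

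**Figure D3:**
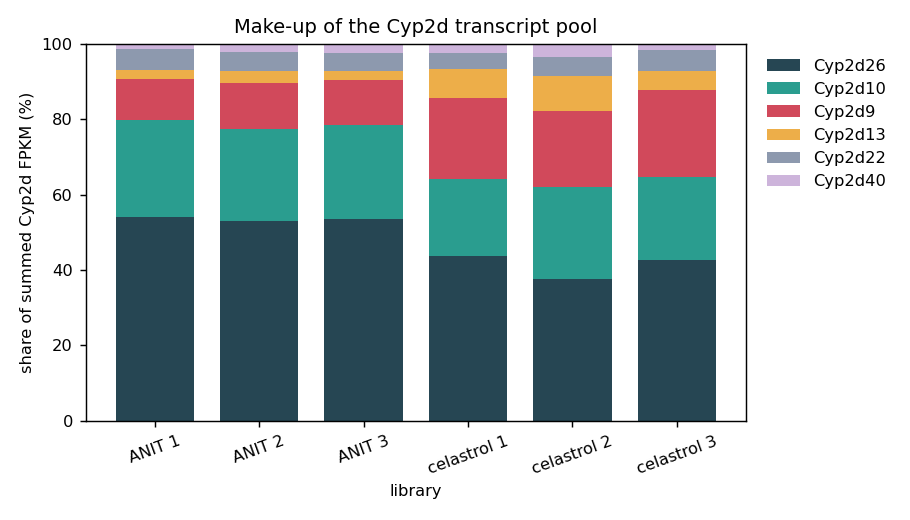
Share of the summed Cyp2d FPKM (%) taken by each of 6 members in the 6 libraries; Cyp2d11, Cyp2d12 and Cyp2d34 are too small to be seen. Cyp2d26 and Cyp2d10 together take 77.5% to 79.8% with ANIT and 62.2% to 64.6% with celastrol.

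Ratios within a library do not depend on how that library was scaled. Cyp2d9 stood at 0.425, 0.499 and 0.475 of Cyp2d10 with ANIT and at 1.05, 0.816 and 1.05 with celastrol. Thus the gene with less FPKM than Cyp2d10 with ANIT was level with it in celastrol replicates 1 and 3. Cyp2d13 stood at 0.0941, 0.130 and 0.0962 of Cyp2d10 with ANIT and at 0.379, 0.379 and 0.236 with celastrol. The log2 difference between groups was 1.05 for Cyp2d9 and 1.62 for Cyp2d13, with no overlap (exact permutation p = 0.1 each). Cyp2d13 over the pseudogene row Cyp2d37-ps was 1.68, 1.92 and 1.38 with ANIT and 2.98, 3.11 and 2.99 with celastrol. That ratio was even within celastrol although both levels varied by more than 2-fold there. Cyp2d13 over Cyp2d9 overlapped between groups (log2 difference 0.57, exact permutation p = 0.2), so the larger fold of Cyp2d13 was not separated from that of Cyp2d9. Cyp2d22 and Cyp2d40 over Cyp2d10 overlapped too (exact permutation p = 0.3 each). Of 11 ratios computed, 6 had groups that did not overlap, and none could reach a p below 0.1. All 6 had Cyp2d9 or Cyp2d13 as the upper gene. Both were called higher on the same values, so this count is not separate evidence. The share of all gene pairs without overlap was not computed.

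**Figure D4:**
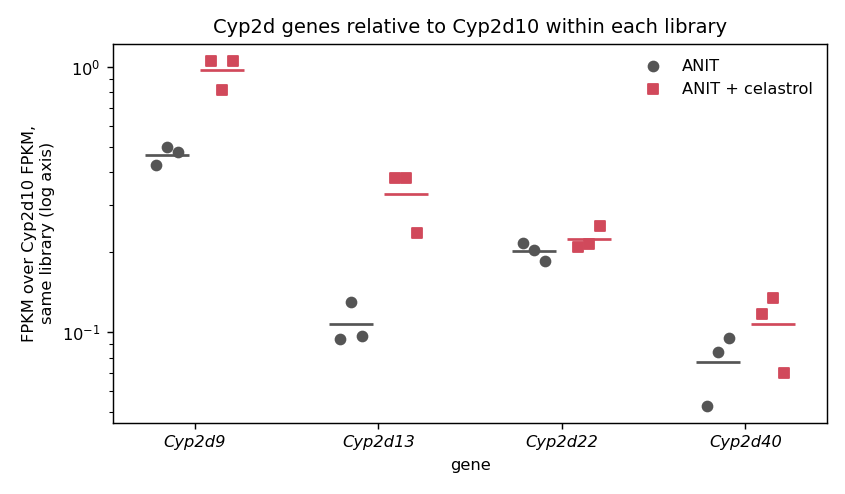
FPKM of 4 Cyp2d genes divided by that of Cyp2d10 in the same library (log axis), with circles for ANIT, squares for celastrol and bars for group means. Cyp2d9 and Cyp2d13 separate by group, and Cyp2d22 and Cyp2d40 overlap.

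With celastrol the order of levels became Cyp2d26, Cyp2d10, Cyp2d9, Cyp2d13, Cyp2d22, Cyp2d40, Cyp2d12, Cyp2d11 and Cyp2d34. Cyp2d10 and Cyp2d9 overlapped, as did Cyp2d13 and Cyp2d22, while Cyp2d26 and Cyp2d40 stayed apart from their neighbours. Among all symbols Cyp2d9 went from rank 440 to 188 and Cyp2d13 from 1713 to 504. Celastrol replicate 2 was the highest of its group in 5 of the 6 tested members and replicate 3 the lowest in 5, as they were in 63.6% and 47.5% of all tested genes. The 10 most abundant symbols took 20.7% of all FPKM in celastrol replicate 2, against 33.2% and 31.5% in replicates 1 and 3 and 20.3% to 21.9% with ANIT. Its part in the spread of the members was not tested. Leaving out each library in turn left Cyp2d9 and Cyp2d13 past the threshold.

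The 9 members span 423.9 kb of chromosome 15 (chr15:82370527-82794452), together with 9 further symbols annotated as Cyp2d pseudogenes. In chromosome order they are Cyp2d22, Cyp2d11, Cyp2d10, Cyp2d9, Cyp2d12, Cyp2d34, Cyp2d13, Cyp2d40 and Cyp2d26. The barely detected genes lie between expressed ones. Cyp2d9 is followed by Cyp2d12, and Cyp2d13 lies between Cyp2d34 and Cyp2d40. The only members between Cyp2d9 and Cyp2d13 are Cyp2d12 and Cyp2d34, both below the filter. Among the tested members the genes that rose are therefore next to each other. Outside the cluster, Ndufa6, a subunit of respiratory complex I 16.2 kb away, had 155 FPKM with ANIT and 142 with celastrol (limma adjusted p = 0.58, and 0.048 without celastrol replicate 2). Tcf20, a transcriptional coregulator 14.0 kb beyond the other end, had 3.49 and 2.61 FPKM (limma adjusted p = 0.058, and 0.023 after rescaling to TPM).

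**Figure D5:**
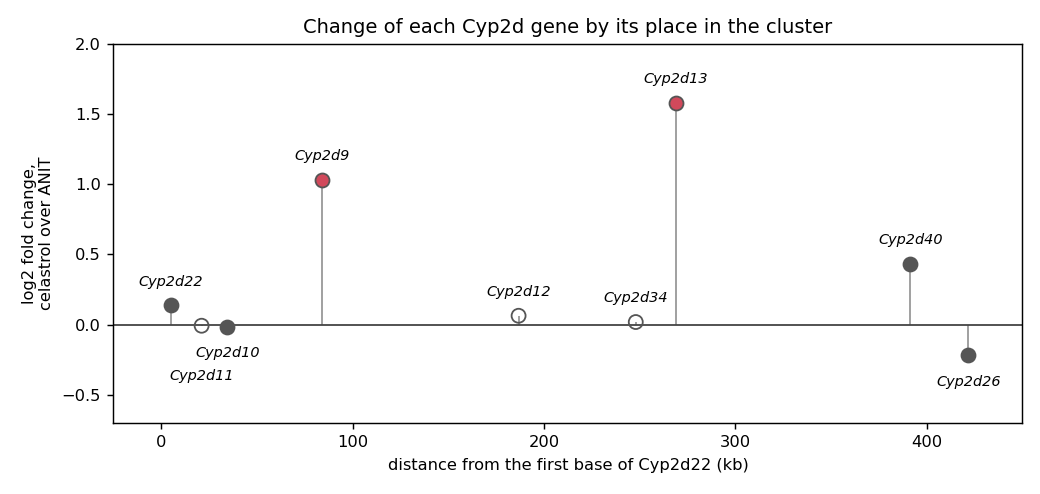
Log2 fold change (celastrol over ANIT) of each Cyp2d gene against its distance in kb from the first base of Cyp2d22. Red points passed the test, grey points were tested and did not pass, and open points were below the filter. Cyp2d10 beside Cyp2d9 and Cyp2d40 beside Cyp2d13 did not pass, and the members between Cyp2d9 and Cyp2d13 were below the filter.

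The genes with profiles closest to each member over the 6 libraries were found by the root mean square difference between centred log2(FPKM + 1) values, a measure that includes the difference between groups. For Cyp2d9 they were the complement genes C4b (0.0708) and C8b (0.0838). For Cyp2d13 they were Cyp2e1 (0.116), a P450 that oxidises ethanol and other small molecules, and Apol9b (0.15). For Cyp2d40 the nearest was Prlr (0.117), the prolactin receptor. The nearest to Cyp2d10, Cyp2d22 and Cyp2d26 were Usf1, Brap and Ampd2. None of these passed the test, which largely follows from choosing them for likeness to members that did not pass.

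Of 25 other Cyp2 genes tested, 3 were higher with celastrol (Cyp2c70, Cyp2e1 and Cyp2c54) and 7 were lower (Cyp2c55, Cyp2a12, Cyp2a22, Cyp2a4, Cyp2a5, Cyp2b10 and Cyp2c39), with a median log2 fold change of -0.12. The lower genes were 28.0% and the higher genes 12.0% of those tested, beside 20.6% and 4.41% of all tested genes, so the share that was lower was near the background. Cyp2c70, which makes muricholic acids in mice, rose from 236 ± 65.3 to 744 ± 186 FPKM (log2 fold change 1.66, limma adjusted p = 0.0044). Cyp2a12 fell from 403 ± 27.1 to 159 ± 47.0 FPKM (log2 fold change -1.37, limma adjusted p = 0.0047). Leaving out ANIT replicates 1, 2 and 3 in turn gave 4, 3 and 6 lower genes, and leaving out the celastrol replicates gave 2, 10 and 3. Some of these genes are themselves near-identical copies whose reads may be split.

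None of the 15 genes of P450 electron transfer and heme supply was higher and 4 were lower (Pgrmc1, Pgrmc2 and Cyb5r1 among them), with a median log2 fold change of -0.39. The lower genes were 26.7% of the list, near the 20.6% of all tested genes, and 4.41% of all tested genes were higher. Without adjustment, 0 were higher and 8 were lower at a limma p under 0.05. Pgrmc1, a heme-binding partner of P450 enzymes, fell from 584 ± 57.8 to 293 ± 90.7 FPKM (log2 fold change -1.03, limma adjusted p = 0.015, and 0.0507 to 0.0657 without ANIT replicate 2, ANIT replicate 3 or celastrol replicate 1). Por had 266, 253 and 289 FPKM with ANIT and 145, 284 and 174 with celastrol. Its groups overlapped through celastrol replicate 2 (limma adjusted p = 0.18, and 0.0068 without that library). Leaving out ANIT replicates 1, 2 and 3 in turn gave 2, 0 and 0 lower genes, and leaving out the celastrol replicates gave 0, 9 and 1. The count was 1 after median-ratio scaling and 9 after rescaling to TPM.

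Of 27 tested genes listed as Cyp2d regulators, 4 were higher (Nr1h4, Onecut1, Socs2 and Cebpa) and 2 were lower (Nr0b2 and Cux2), with a median log2 fold change of -0.06. These were 14.8% and 7.41% of the list, against 4.41% and 20.6% of all tested genes. Nr0b2 had 94.6, 89.5 and 66.7 FPKM with ANIT and 23.1, 26.9 and 22.4 with celastrol. It fell by 1.74 on the log2 scale (limma adjusted p = 0.00085). Nr1h4, the bile acid receptor FXR that induces Nr0b2, rose from 27.6 ± 1.65 to 65.7 ± 3.52 FPKM (log2 fold change 1.22, limma adjusted p = 0.00083). Onecut1, a hepatocyte transcription factor, rose from 1.14 ± 0.540 to 4.54 ± 0.714 FPKM (log2 fold change 1.40, limma adjusted p = 0.0028). Hnf4a had 190.1 ± 13.6 FPKM with ANIT and 205 ± 13.9 with celastrol (95% interval -0.19 to 0.41, limma adjusted p = 0.56). Stat5b, which carries the growth hormone signal to sex-biased liver genes, had 9.95 ± 1.54 and 10.7 ± 1.09 FPKM (95% interval -0.21 to 0.40, limma adjusted p = 0.61). The count of lower regulators was 1 without ANIT replicate 2, ANIT replicate 3 or celastrol replicate 3, 3 without celastrol replicate 1, and 5 without celastrol replicate 2 or after rescaling to TPM.

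Lists of genes known as sex-biased in adult mouse liver were examined because Cyp2d9 is among the classical ones. The libraries here are labelled postnatal day 21 with no sex given, and a link between these lists and Cyp2d9 was not tested. Of 23 other male-biased genes tested, 4 were higher (Serpina1e, Moxd1, Cyp7b1 and Susd4) and 3 were lower (Gstp2, Gstp1 and Cyp4a12b), with a median log2 fold change of 0.48. These were 17.4% and 13.0% of the list, against 4.41% and 20.6% of all tested genes. Serpina1e, an antitrypsin of a multigene family, rose from 1068 ± 465 to 3667 ± 751 FPKM (log2 fold change 1.86, limma adjusted p = 0.0087). Gstp1, a glutathione transferase, fell from 1485 ± 286 to 758 ± 102 FPKM (log2 fold change -0.96, limma adjusted p = 0.012, and 0.056 without celastrol replicate 1). Leaving out ANIT replicates 1, 2 and 3 in turn gave 2, 1 and 6 higher genes, and leaving out celastrol replicate 1 gave 2. The count of lower genes was 1 without celastrol replicate 1.

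Of 12 female-biased genes tested, 0 were higher (1 at an unadjusted limma p under 0.05, and 1 past the adjusted threshold without celastrol replicate 2) and 6 were lower (Acot4, Acot3, Abcd2, Fmo4, Cux2 and Cyp2a4), with a median log2 fold change of -1.15. Cux2 was also counted among the regulators and Cyp2a4 among the other Cyp2 genes, so the lists are not independent. The lower genes were 50% of the list, against 20.6% of all tested genes. The count was 2 where a mean of at least 5 FPKM was required, since Acot3, Abcd2, Cux2 and Cyp2a4 were then not tested. The acyl-CoA thioesterase Acot4 fell from 13.9 ± 3.60 to 2.93 ± 0.462 FPKM and Acot3 from 5.11 ± 1.94 to 0.307 ± 0.263 FPKM (limma adjusted p = 0.0012 and 0.0019). The peroxisomal transporter Abcd2 fell from 5.79 ± 1.98 to 1.05 ± 0.360 FPKM (limma adjusted p = 0.0047).

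Markers of liver cell types were read beside these results. For the counts below, 4.41% of all tested genes were higher and 20.6% were lower. The summed FPKM of 12 hepatocyte markers was 52272 to 63501 with ANIT and 36386 to 42469 with celastrol, with 2 of 11 tested markers higher and 1 lower. The list named transferrin by its human symbol Tf, and with the mouse symbol Trf added after the data were seen the sums were 62929 to 78349.5 and 47789 to 52730, again without overlap. That of 10 cholangiocyte markers was 44.8 to 53.0 and 22.0 to 51.0, with 1 of 4 lower and Cftr under 0.1 FPKM. That of 14 leukocyte markers was 77.6 to 181 and 166 to 201, with 3 of 10 higher. Endothelial markers summed to 31.0 to 51.1 and 41.1 to 71.1, with 1 of 7 higher, and stellate cell markers to 20.3 to 37.2 and 16.6 to 56.6, with 0 of 5 called in either direction. The hepatocyte sum did not overlap between groups and was lower with celastrol. Every celastrol library also lay below every ANIT library for 36.6% of all tested genes. A sum of FPKM is weighted to the most abundant markers and does not count cells. The part of cell make-up in the Cyp2d values was not tested.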

How the data were processed

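Total RNA of frozen liver was sequenced, and the titles of the libraries gave the groups and the replicate numbers. Per the file headers, each deposited table holds FPKM per gene symbol for 1 library. Alignment to mm10 with HISAT2 and counting with featureCounts are named in the submitters' processing notes. The sources used here do not give the calculation of FPKM, the lengths behind it or the strandedness. The smallest FPKM listed was 0.01, and a symbol not listed was set to 0. From 23 to 24 rows per library had names turned into dates, and 2 repeated names were left out. FPKM tables give no read totals, so depth was estimated from the steps between values of 0.1 to 1 FPKM, and reads per gene are approximate.

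The test was limma 3.58.1 (R 4.3.3) on log2(FPKM + 1), over genes that reached 1 FPKM in 3 or more libraries (empirical Bayes with trend and robust variance), adjusted by Benjamini-Hochberg over all tested genes. This scale understates changes of low genes. Single ratios and shares were compared by exact two-sided permutation tests in scipy 1.17.1. Sequences were compared with Biopython 1.88. The script was tested on simulated data.

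Members and gene lists were chosen with earlier results of these data known. Text names all members, the 3 tested genes of each list with the smallest p, the 2 genes closest to each member, the flanking genes, and Nr0b2, Hnf4a, Stat5b and Por; some of these are given only in counts or are not reported here, and others named beside counts were chosen after their values were seen. Alternatives were a pseudocount of 0.1, no filter, a mean of at least 5 FPKM, median-ratio, TPM and quantile scaling, the 20 most abundant genes left out, non-robust variance, a replicate block, and leaving out each library. Settings for shares, lists and other named genes were added after the data were seen.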

Additional observations from a re-analysis of the deposited data

How the results depend on the processing

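Cyp2d9 and Cyp2d13 were higher in each of the 15 alternatives (log2 fold change 0.91 to 1.24 and 1.31 to 1.89, limma adjusted p 0.000841 to 0.0142 and 0.00209 to 0.044), and no other member was called in any. The sign of Cyp2d10 turned in 6 alternatives; its log2 fold change was -0.01 as deposited, 0.17 after median-ratio scaling, 0.23 after quantile normalization, 0.0602 without the 20 most abundant genes, and 0.03, 0.05 and 0.0755 without ANIT replicate 1, celastrol replicate 1 and celastrol replicate 3. Other signs that turned were those of Hnf4a (-0.0184 with TPM), Stat5b (-0.0199 with TPM, -0.0046 to 0.1982 with a library left out) and Ndufa6 (0.0209 with median-ratio and 0.0253 with quantile scaling). The median over all genes was -0.17 as deposited, -0.02 with median-ratio, 0.01 with quantile and -0.30 with TPM scaling. The summed family ratio was 1.27 with median-ratio, 1.22 with quantile and 1.03 with TPM scaling (1.12 as deposited). It was 1.05 to 1.18 with a library left out. Genes called numbered 2652, against 4202 with TPM and 1127 to 3841 with a library left out. The lower P450 electron transfer and heme genes (4) numbered 2 without a filter, 1 with median-ratio, 9 with TPM and 2 with quantile scaling, and 0 to 9 with a library left out. With TPM 5 regulators were lower (2 as deposited), with quantile scaling 1 male-biased gene was lower (3), and with a mean of at least 5 FPKM 2 female-biased genes were lower (6). That filter took Acot3, Abcd2, Cux2 and Cyp2a4 out of the test. With a library left out, other Cyp2 genes lower were 2 to 10, regulators lower 1 to 5, male-biased genes higher 1 to 6 and lower 1 to 4, and female-biased genes higher 0 to 1. Deviations from the group mean correlated at 0.149, 0.231 and -0.0917 between same-numbered libraries and at -0.243 to 0.18 between differently numbered ones. With 3 libraries per group these values cannot decide whether replicate numbers pair the samples. With the replicate block 2 members were higher and 0 lower (Cyp2d9 limma adjusted p = 0.0078, Cyp2d13 0.0060). The cause of these shifts was not tested. Gene-level precision is limited by 3 libraries per group, and below 1 FPKM by few reads.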
